A study of Mus musculus with 8 samples.

Results

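The replication checkpoint is a kinase cascade that senses stalled forks and broken DNA and holds back mitosis. Its kinases and mediators were followed here as 10 genes, which are Atm, Atr, Atrip, Chek1, Chek2, Clspn, Topbp1, Rad17, Wee1 and Cdc25a. They were taken by symbol, with every probe whose RefSeq accession belongs to one of them, from 20145 genes with a symbol on the array. This gave 11 of 55681 probes, because 9 genes had 1 probe and Atm had 2. The whole embryos were of outbred CD-1 mice on gestational day 9. In 4 samples the dams had received hydroxyurea at 400 mg/kg by intraperitoneal injection, and in the 4 others saline by the same route. Embryos were taken 3 h after the injection. The RNA was hybridised to 8 one-colour Agilent arrays, 1 for each sample. The labels do not tie a sample to a dam, a litter or an experiment, so the p-values measure only the spread between samples.

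Hydroxyurea inhibits ribonucleotide reductase, which makes the deoxyribonucleotides that replication forks use. Stalled forks expose single-stranded DNA, to which Atr is brought by its partner Atrip. Rad17 loads the checkpoint clamp, Topbp1 activates Atr, and Claspin, the product of Clspn, lets Atr phosphorylate Chek1. Atm responds mainly to double-strand breaks and phosphorylates Chek2. Both branches converge on the cyclin-dependent kinases, which Wee1 inhibits by tyrosine phosphorylation and which the phosphatase Cdc25a reactivates. Much of this control acts on the proteins, whereas the arrays measured RNA alone.

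The arrays were compared first. Between 48.7% and 62.3% of spots on an array were well above background, and the 75th percentile of signal was 249 to 516. Across the tested probes with a value on every array, hydroxyurea 2 correlated at 0.987 with saline 1, against 0.979 to 0.981 with its own group. Hydroxyurea 3 had the lowest correlations within its group, at 0.977 to 0.979. Values without hydroxyurea 2 are given where they change a call or move a difference by over 1.5 times.

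Of the 10 genes, Atm on its single-spot probe rose and Wee1 fell in hydroxyurea embryos, and the other 8 did not pass the test. Neither call was stable. Of 8 fits that left out 1 sample each, 2 called Atm and 2 called Wee1. Both calls were lost with median centring and with slide and row together as a block. The second Atm probe was not called (adjusted p 0.314, limma). Atm was 1.58-fold higher on its single-spot probe, and Wee1 had 61.7% of the saline level. Among the 11 probes, 1 was called higher, 1 lower and 9 neither, with an adjusted p under 0.05 in limma as the threshold for a call. The background of such calls was 2.52% of 30759 tested probes for higher and 4.29% for lower. With 11 probes, a count of 1 in each direction is given as a description beside these shares. All 11 probes were well above background on all 8 arrays, so the filter on dim probes removed no member. In whole embryos, fewer cells of a type and less RNA per cell cannot be told apart.

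Values are log2 processed signals minus the 75th percentile of the same array, so 0 stands for that percentile. An increase of 1 is a doubling. Levels of different probes are not set against each other, because probes differ in their response. On the members' scale, the differences between hydroxyurea and saline ran from -0.70 for Wee1 to 0.66 for Atm. Their median was 0.15, against 0.02 over all tested probes. In 7 probes the difference was positive and in 4 negative. In 5 probes the 4 hydroxyurea and 4 saline values did not overlap, a state that 15.8% of all tested probes shared. These 5 were the single-spot Atm probe, Atrip, Clspn, Rad17 and Wee1.

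**Figure D1:**
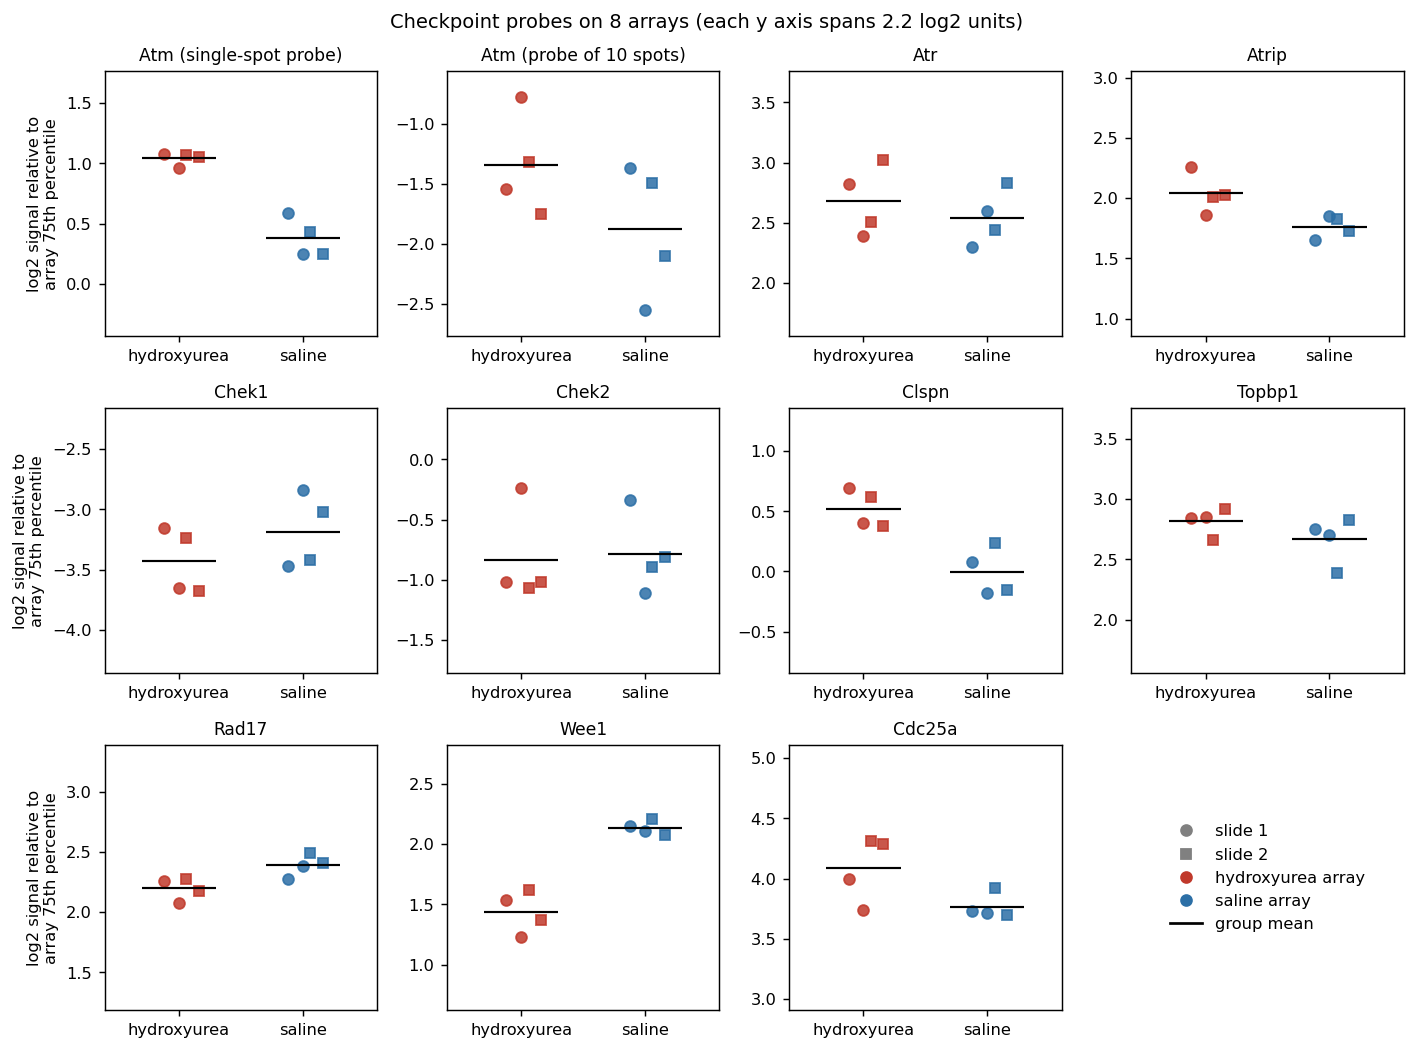
Signals of the 11 checkpoint probes on each array, as log2 relative to the array's 75th percentile, with hydroxyurea samples left of saline samples in each panel. Points are samples and horizontal bars are group means. The Atm single-spot probe lies between 0.96 and 1.08 in hydroxyurea samples and between 0.25 and 0.59 in saline samples, and Wee1 lies between 1.23 and 1.62 in hydroxyurea samples and between 2.08 and 2.21 in saline samples.

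The sequences around the start sites are shown for Atm, which was called and lacks the E2F letters, and for 3 members that hold them. They come from RefSeq, build GRCm38.p6, and span 250 bases before the start to 50 after it, read 5′ to 3′ on the gene's strand. Capitals mark the E2F letters, TTTNNCGC with each N being C or G, and the letters CCAAT, each searched on both strands, and no marked pair overlaps. Of the members 9 had an entry, and Wee1 had none.
Atm (chr9:53536622-53536921, minus strand): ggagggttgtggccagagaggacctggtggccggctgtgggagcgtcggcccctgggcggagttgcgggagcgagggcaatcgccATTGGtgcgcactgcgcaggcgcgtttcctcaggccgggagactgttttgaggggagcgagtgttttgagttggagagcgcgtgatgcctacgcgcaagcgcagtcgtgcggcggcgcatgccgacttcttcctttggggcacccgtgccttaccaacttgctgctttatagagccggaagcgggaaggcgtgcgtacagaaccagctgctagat
Chek2 (chr5:110839733-110840032, plus strand): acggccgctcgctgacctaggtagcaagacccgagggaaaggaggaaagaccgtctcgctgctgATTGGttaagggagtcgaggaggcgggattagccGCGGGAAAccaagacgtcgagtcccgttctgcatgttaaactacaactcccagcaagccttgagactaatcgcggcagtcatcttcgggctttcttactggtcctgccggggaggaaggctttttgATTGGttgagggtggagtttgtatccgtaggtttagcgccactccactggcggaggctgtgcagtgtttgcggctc
Clspn (chr4:126556730-126557029, plus strand): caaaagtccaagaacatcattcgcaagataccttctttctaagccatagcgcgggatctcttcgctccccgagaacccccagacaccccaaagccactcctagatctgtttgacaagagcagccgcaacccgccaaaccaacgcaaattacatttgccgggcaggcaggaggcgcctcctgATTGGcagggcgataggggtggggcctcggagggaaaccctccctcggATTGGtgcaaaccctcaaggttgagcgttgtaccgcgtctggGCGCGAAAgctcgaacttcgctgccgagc
Cdc25a (chr9:109875329-109875628, plus strand): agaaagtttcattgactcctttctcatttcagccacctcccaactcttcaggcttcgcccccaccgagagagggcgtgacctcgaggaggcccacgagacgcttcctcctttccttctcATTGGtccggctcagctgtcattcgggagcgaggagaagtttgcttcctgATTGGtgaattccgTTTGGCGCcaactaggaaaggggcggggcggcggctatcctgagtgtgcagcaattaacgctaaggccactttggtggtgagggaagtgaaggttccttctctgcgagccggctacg

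The E2F letters stood in the windows of Chek2, Clspn, Topbp1 and Cdc25a, 4 of 9 members, against 2.27% of 32851 promoters in the table. They began 152 bases before the start in Chek2, 22 bases after it in Clspn, 129 bases before it in Topbp1 and 67 bases before it in Cdc25a. None of these 4 genes passed the test between the groups. The letters CCAAT stood in 5 of 9 members, which were Atm, Atrip, Chek2, Clspn and Cdc25a, against 37.4% of all promoters. The letters TTTGAA, known as the CHR element of genes of late cell-cycle stages, stood in 0 of 9 members and in 17.9% of all promoters, again on both strands. GC content of the members' windows ran from 55.3% to 73.7%, against a median of 52.7% over all promoters. Matches of letters describe these windows only.

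Atm, on chromosome 9, encodes the kinase that double-strand breaks activate. Its single-spot probe (A_52_P400509, RefSeq NM_007499) gave 1.08, 0.96, 1.07 and 1.05 in the hydroxyurea samples, against 0.59, 0.25, 0.43 and 0.25 in the saline samples. Every hydroxyurea sample lay above every saline sample, with a gap of 0.37 between the groups. The means were 1.04 ± 0.0577 in hydroxyurea and 0.38 ± 0.163 in saline (SD, n = 4 each). The difference was 0.66 ± 0.14 (SE) on the log2 scale, with a 95% interval of 0.34 to 0.98 and an adjusted p of 0.0267 (limma). Within slide 1 it was 0.60 and within slide 2 it was 0.72, and a fit with slide as a block gave an adjusted p of 0.0455. When slide and row together formed the block, with 1 array of each treatment at each of 4 positions, Atm was no longer called, at an adjusted p of 0.0583 (limma). Of the 8 fits that left out 1 sample each, only those without hydroxyurea 2 or saline 1 called it, and the adjusted p ran from 0.0193 to 0.0855. The call was also lost with median centring, with no filter on dim probes and in each slide alone.

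The second Atm probe (A_52_P369581) was printed as 10 spots per array. Its values were -1.54, -0.78, -1.32 and -1.75 in hydroxyurea samples, against -1.37, -2.55, -1.49 and -2.10 in saline samples. The groups overlapped, and hydroxyurea 2 was the highest of the 8 arrays while saline 2 was the lowest. The means were -1.35 ± 0.419 and -1.88 ± 0.550 in hydroxyurea and saline (SD, n = 4 each). The difference was 0.53 ± 0.30 (SE), with an interval of -0.16 to 1.22 and an adjusted p of 0.314 (limma). It was 0.34 without hydroxyurea 2, 0.31 without saline 2 and 0.23 without hydroxyurea 2 and 3. Spots of this probe on 1 array had SDs of 0.072 to 0.276 over 9 to 10 spots, which is below the SD between samples of either group. With the mean of both probes, Atm differed by 0.60 and was not called, at an adjusted p of 0.109 (limma).

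The Atm start lies beside that of Npat, which runs on the opposite strand from a start 376 bases upstream. Npat encodes an activator of histone genes at S phase entry. Its probe was well above background on 0 of 8 arrays, so the gene on the other side of this start region was not measured well above background. The Atm and Npat windows of the RefSeq table share 125 bases.

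Chek2, on chromosome 5, encodes the effector kinase downstream of Atm. Its probe (A_51_P137111, NM_016681) gave -1.02, -0.24, -1.07 and -1.02 in hydroxyurea samples, against -0.34, -1.11, -0.89 and -0.81 in saline samples. Hydroxyurea 2 stood far above its group, and 3 of the saline samples were close together. The difference was -0.05 ± 0.24 (SE), with an interval of -0.60 to 0.49 and an adjusted p of 0.920 (limma). Its sign was not stable, being 0.09 in slide 1 and -0.19 in slide 2, and it was -0.25 without hydroxyurea 2.

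Atr, on chromosome 9, encodes the apical kinase of the response to stalled forks. Its probe (A_52_P428125, NM_019864) gave 2.82, 2.39, 2.51 and 3.02 in hydroxyurea samples, against 2.30, 2.60, 2.44 and 2.83 in saline samples. The values of the groups were interleaved. The means were 2.69 ± 0.290 and 2.54 ± 0.231 in hydroxyurea and saline (SD, n = 4 each). The difference of 0.14 ± 0.19 (SE) had an interval of -0.29 to 0.58 and an adjusted p of 0.691 (limma). It was 0.24 without hydroxyurea 2, 0.032 without hydroxyurea 4, 0.062 without saline 1 and 0.24 without saline 4, and 0.38 without hydroxyurea 2 and 3.

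Atrip, also on chromosome 9, encodes the partner that brings Atr to single-stranded DNA. Its probe (A_51_P104527, NM_172774) gave 2.26, 1.86, 2.01 and 2.03 in hydroxyurea samples, against 1.65, 1.85, 1.83 and 1.73 in saline samples. The groups did not overlap, but the gap between hydroxyurea 2 and saline 2 was only 0.0131. The difference was 0.28 ± 0.15 (SE), with an interval of -0.05 to 0.60 and an adjusted p of 0.273 (limma). RefSeq also lists a readthrough gene, Atrip-trex1, on the same strand, and the probe may not separate its transcripts from those of Atrip.

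Topbp1 and Rad17 act just upstream of active Atr. The Topbp1 probe (A_51_P302651, NM_176979, chromosome 9) gave 2.84, 2.85, 2.66 and 2.92 in hydroxyurea samples, against 2.75, 2.70, 2.39 and 2.83 in saline samples. These overlapped, and the difference of 0.15 ± 0.15 (SE) had an interval of -0.19 to 0.49 and an adjusted p of 0.586 (limma), and was 0.058 without saline 3. The Rad17 probe (A_51_P464630, NM_011233, chromosome 13) gave 2.26, 2.08, 2.28 and 2.18 in hydroxyurea samples, against 2.28, 2.38, 2.49 and 2.41 in saline samples. All hydroxyurea values were the lower ones, although the groups were only 0.0025 apart at their nearest samples. The difference was -0.19 ± 0.13 (SE), with an interval of -0.49 to 0.11 and an adjusted p of 0.404 (limma). Ak6 and Taf9 share a start 282 bases upstream of Rad17 on the opposite strand, and their probes differed by -0.03 and 0.17 with adjusted p of 0.929 and 0.638 (limma).

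Clspn, on chromosome 4, encodes the adaptor between Atr and Chek1. Its probe (A_52_P476075, NM_175554) gave 0.69, 0.40, 0.62 and 0.38 in hydroxyurea samples, against 0.08, -0.18, 0.24 and -0.15 in saline samples. The groups did not overlap, with a gap of 0.146. The means were 0.52 ± 0.158 in hydroxyurea and -0.0056 ± 0.197 in saline (SD, n = 4 each). The difference of 0.53 ± 0.16 (SE), or 1.44-fold, had an interval of 0.17 to 0.89. Its unadjusted p was 0.0089 and its adjusted p 0.0838 in limma, so Clspn was not called. Slide 1 gave 0.60 and slide 2 gave 0.46. Quantile normalization brought the adjusted p to 0.0497 (limma), the only alternative that called it, and across all alternatives the adjusted p ran from 0.0497 to 0.667.

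Chek1, on chromosome 9, encodes the effector kinase that Atr activates. Its probe (A_55_P2000187, NM_007691) was the dimmest of the 11, with processed signals of 26.5 to 72.0. The values were -3.15, -3.65, -3.24 and -3.68 in hydroxyurea samples, against -3.47, -2.84, -3.42 and -3.02 in saline samples. The groups overlapped, and the difference was -0.24 ± 0.21 (SE), with an interval of -0.71 to 0.23 and an adjusted p of 0.511 (limma). After normexp background correction it was -0.04, and it was -0.16 without hydroxyurea 4 and -0.13 without saline 2.

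Wee1, on chromosome 7, encodes the kinase that holds CDK1 inactive until mitosis. Its probe (A_66_P136186, NM_009516) gave 1.54, 1.23, 1.62 and 1.37 in hydroxyurea samples, against 2.15, 2.11, 2.21 and 2.08 in saline samples. Every hydroxyurea sample lay below every saline sample, with a gap of 0.45. The means were 1.44 ± 0.175 in hydroxyurea and 2.14 ± 0.0582 in saline (SD, n = 4 each). The difference was -0.70 ± 0.14 (SE), with a 95% interval of -1.02 to -0.37 and an adjusted p of 0.0229 (limma). Within slide 1 it was -0.75 and within slide 2 it was -0.65, and the slide as a block gave an adjusted p of 0.039. With the position as a block Wee1 was no longer called, at an adjusted p of 0.0519 (limma). Of the 8 fits that left out 1 sample each, only those without hydroxyurea 2 or hydroxyurea 3 called it, with adjusted p from 0.0201 to 0.0806. The call was also lost with median centring, with no filter and in each slide alone.

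Cdc25a, on chromosome 9, encodes the phosphatase that opposes Wee1 and that checkpoint kinases mark for destruction. Its probe (A_65_P05252, NM_007658) gave 4.00, 3.74, 4.31 and 4.29 in hydroxyurea samples, against 3.73, 3.71, 3.92 and 3.70 in saline samples. The groups overlapped at hydroxyurea 2, which lay below saline 3. The means were 4.08 ± 0.268 and 3.77 ± 0.107 in hydroxyurea and saline (SD, n = 4 each). The difference of 0.32 ± 0.17 (SE) had an interval of -0.06 to 0.70 and an adjusted p of 0.281 (limma), and it was 0.15 in slide 1 and 0.48 in slide 2. Without hydroxyurea 2 the difference was 0.43, with an adjusted p of 0.082 (limma).

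**Figure D2:**
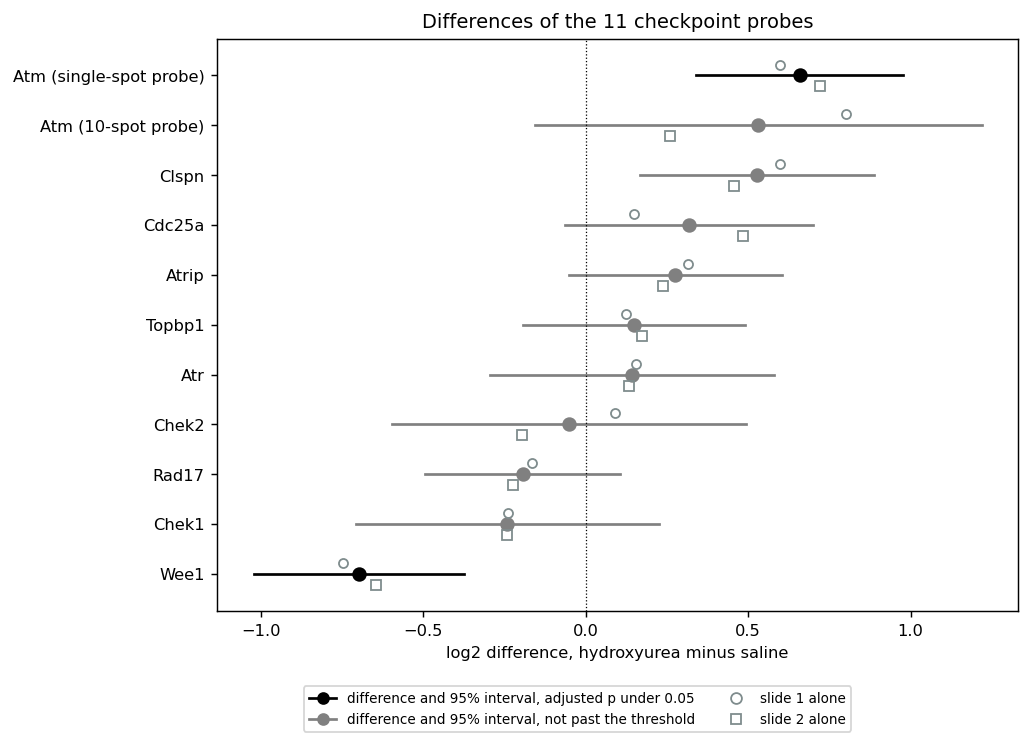
Differences between hydroxyurea and saline for the 11 checkpoint probes, in log2, with 95% intervals from the fit across all probes. Black marks the 2 probes with an adjusted p under 0.05, Atm at 0.66 and Wee1 at -0.70, and open circles and squares give each slide alone.

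The log2 ratio of 6 pairs of these genes was taken within each array. It was compared by an exact two-sided permutation test over 70 assignments of samples to groups, whose smallest p is 0.0286. The level of such a ratio depends on the probes, and only its difference between the groups is read. The ratio of Wee1 to Cdc25a was -2.46, -2.51, -2.69 and -2.91 in hydroxyurea samples, against -1.58, -1.60, -1.72 and -1.62 in saline samples. These groups did not overlap, and the ratio was 2.02 times lower in hydroxyurea, a difference of -1.01 in log2. Its exact p was 0.0286, and 0.0857 when adjusted over the 6 pairs. The ratio of Chek1 to Clspn averaged -3.95 ± 0.119 in hydroxyurea and -3.18 ± 0.492 in saline (SD, n = 4 each), and these groups did not overlap. It differed by -0.77, with the same exact p of 0.0286 and the same adjusted p of 0.0857. The Chek1 probe was the dimmest member probe. After normexp background correction Chek1 over Clspn differed by -0.54 and Wee1 over Cdc25a by -0.82, each with an adjusted exact p of 0.129. No pair passed the threshold of 0.05 after adjustment, which at this sample size could be passed only if at least 4 of the 6 pairs reached the smallest p. For Atm over Chek2 the difference was 0.71 (adjusted exact p 0.171), for Atm over Atr 0.52 (0.171), for Atr over Atrip -0.13 (0.549) and for Chek1 over Chek2 -0.19 (0.686).

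**Figure D3:**
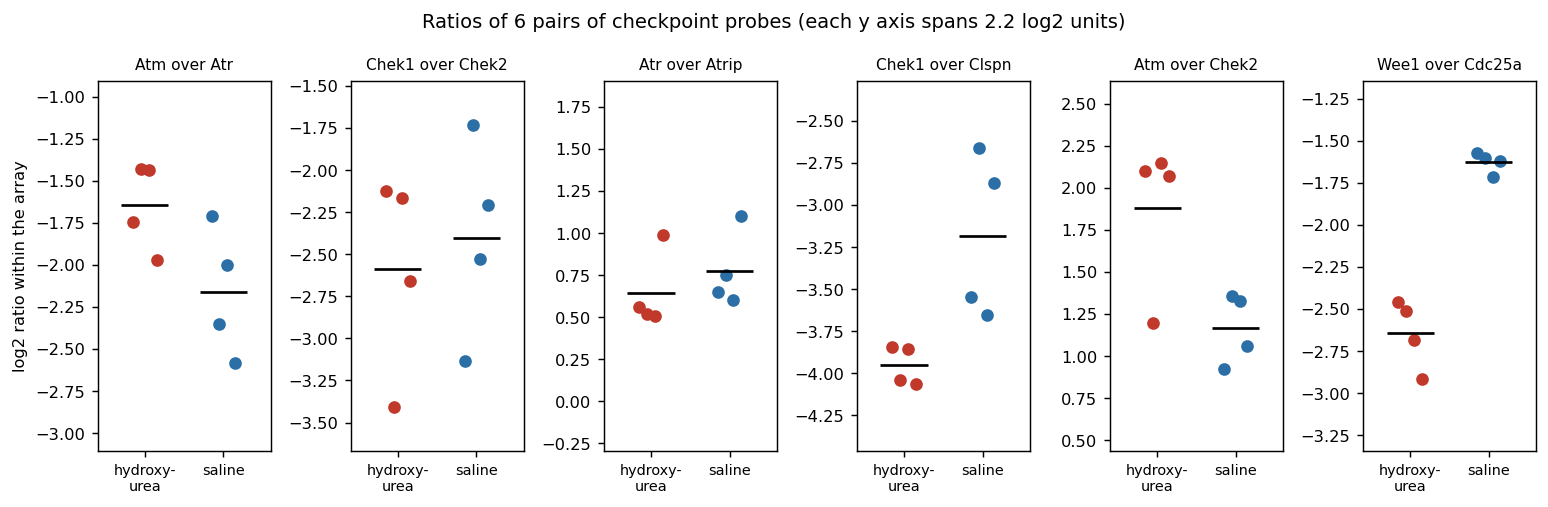
Log2 ratios of 6 pairs of checkpoint genes within each array, with hydroxyurea samples left of saline samples and bars at the group means. Wee1 over Cdc25a lies between -2.91 and -2.46 in hydroxyurea samples and between -1.72 and -1.58 in saline samples.

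By the root mean square distance over the 8 arrays, after each probe was centred on its own mean, 19076 named probes were ranked for likeness to the called members. Nearest to Atm were Cd109 at 0.0658, Apoo at 0.0678 and Pole2 at 0.0681 log2 units. Cd109 differed by 0.62 between the groups, Apoo by 0.57 and Pole2 by 0.64. Nearest to Wee1 were Parpbp at 0.0713, Ube2s at 0.0803 and Kpna2 at 0.0954. Parpbp differed by -0.72, Ube2s by -0.73 and Kpna2 by -0.77. These values describe the 8 arrays, which share their samples, and the rank carries no test. A probe near a called member on these arrays differs between the groups much as that member does, so these differences follow from the choice. Apoo was not called, at an adjusted p of 0.0525 (limma).

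The authors' deposited table lists 1346 probes as differentially expressed on the same 8 arrays. In it 2 of the 11 member probes are listed, against 4.37% of the tested probes. They are the same Atm and Wee1 probes as here. The table gives Atm as 0.31, 0.18, 0.28 and 0.28 in hydroxyurea samples, against -0.18, -0.52, -0.34 and -0.52 in saline samples, on a log2 scale centred on each probe. Wee1 in the authors' deposited table is at -0.30, -0.61, -0.24 and -0.47 in hydroxyurea samples, against 0.32, 0.27, 0.37 and 0.24 in saline samples. Since these probes were listed for a difference on the same arrays, they are no further evidence of one.

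The rest of the pathway was read from 5 lists of 53 genes, of which 50 were tested with 1 probe per gene. Of these, 2 rose, 1 fell and 47 were not called, against a background of 2.76% higher and 3.39% lower among 23173 genes and unnamed features. Their median difference was 0.14, against 0.04 over all of those features. In 34 of 50 genes the difference was positive.

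Ccne1, which encodes the cyclin E that drives entry into S phase, rose. Its values were 6.20, 5.57, 5.97 and 5.82 in hydroxyurea samples, against 4.92, 4.98, 5.15 and 4.88 in saline samples, without overlap. The difference was 0.91 ± 0.17 (SE), with an adjusted p of 0.0155 (limma), and it was called in 8 of 8 fits without 1 sample. A second Ccne1 probe differed by 0.88 with an adjusted p of 0.0763 (limma). Cdc25b, which encodes a phosphatase that starts mitosis, fell, with 2.12, 2.15, 2.19 and 2.28 in hydroxyurea samples, against 2.69, 2.65, 2.77 and 3.09 in saline samples. Its difference was -0.62 ± 0.15 (SE), with an adjusted p of 0.0424 (limma), but of the 8 fits without a sample only that without hydroxyurea 2 called it, and a slide block gave 0.0527. The other 7 tested genes of the list for the switch of cyclin-dependent kinases were not called. This list of 9 tested genes, with Ccne1 and Cdc25b, had 1 higher, 1 lower and a median of -0.39. An unadjusted p under 0.05 (limma) was reached by 8 of these 9, of which 6 were lower, against 24.8% of all 23173 features, 12.4% higher and 12.3% lower.

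Cdc7, which encodes a kinase that starts replication origins, was the 1 gene of 8 called in the list of fork protection and the second Atr activator, whose median was 0.37. It gave -2.41, -2.35, -2.31 and -2.23 in hydroxyurea samples, against -2.93, -3.85, -3.01 and -2.98 in saline samples. These did not overlap, and the difference was 0.87 ± 0.21 (SE), with an adjusted p of 0.0461 (limma). A second Cdc7 probe differed by -0.06 with an adjusted p of 0.901 (limma), and the first was called in 1 of 8 fits without a sample, that without hydroxyurea 2. The call was also lost with the slide as a block (0.0571), and normexp gave a difference of 0.42 (0.155).

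None of the 11 tested genes of the checkpoint clamp, its loader and RPA, the protein that coats single-stranded DNA, was called, and 4 had an unadjusted p under 0.05 (limma), all of them higher, against the 12.4% of all features. Their median was 0.19, with Rfc3, a subunit of the clamp loader, at 0.72 (adjusted p 0.0583, limma) and Rpa2 at 0.45 (0.135). Without hydroxyurea 2 the median of this list was 0.34. Of the 10 break sensors and chromatin mediators 0 were called, with 3 at an unadjusted p under 0.05 (limma), all of them higher, and a median of 0.23. In this list Rif1, which protects broken ends, was at 0.55 and Rnf168, a ubiquitin ligase at breaks, at 0.50. Without hydroxyurea 2 both were called, with adjusted p of 0.0168 and 0.0253 (limma), as was Rfc3 (0.0384). Calls over all 30759 tested probes also rose without this array, from 776 to 2214 higher and from 1321 to 2647 lower. Of 12 genes of recovery and turnover 0 were called, with 2 at an unadjusted p under 0.05 (limma) and a median of 0.06. That median was 0.19 without hydroxyurea 2. Plk1, a kinase that ends the checkpoint, was at -0.87 (adjusted p 0.0672, limma), and Ppm1d, a phosphatase that p53 induces, at 0.66 (0.0932). Ppm1d was called without hydroxyurea 2 (0.0164), and Plk1 without hydroxyurea 3 (0.0368) and after normexp (0.00157).

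**Figure D4:**
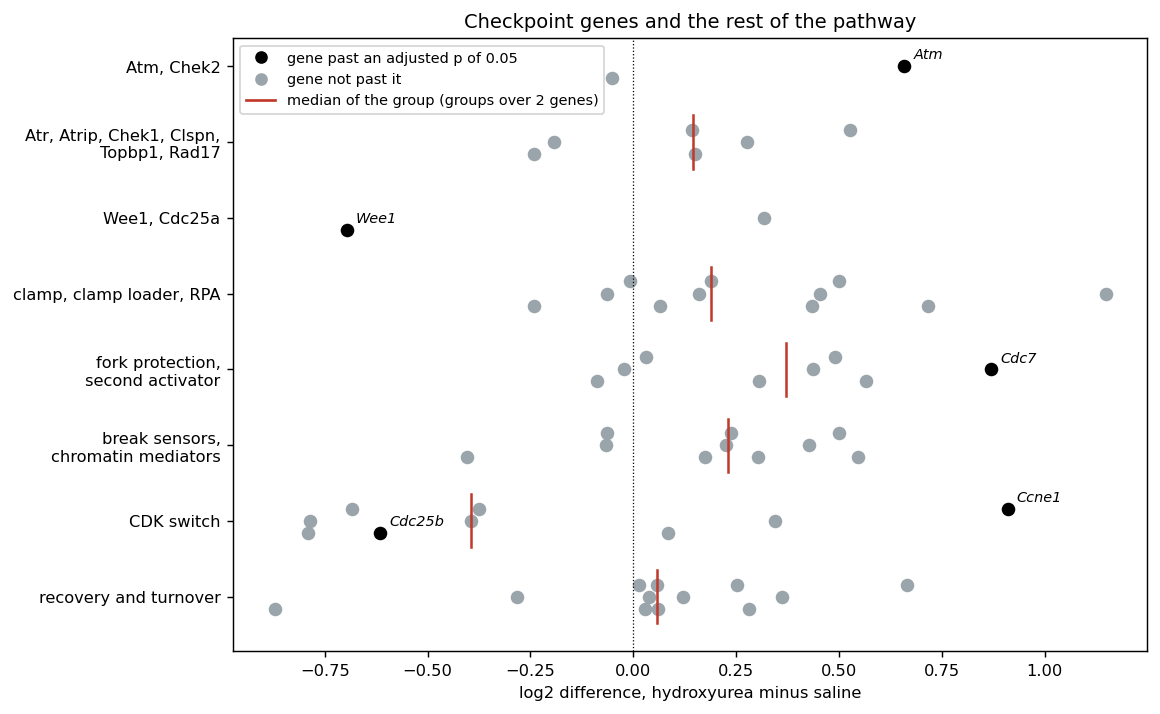
Log2 differences between hydroxyurea and saline for the 10 checkpoint genes, in 3 groups by role, and for 50 other genes of the pathway in 5 lists, with 1 probe per gene. Black points have an adjusted p under 0.05, red lines are medians of groups over 2 genes, and the CDK switch list has its median at -0.39.

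The counts were also taken without hydroxyurea 2, the array that stood nearest to a saline array. Without it, 2214 probes were called higher and 2647 lower, and 10 genes of the pathway lists were called, while Atm and Wee1 were called with an adjusted p of 0.0193 and 0.0201 (limma).

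Markers were read on each array beside these genes. All 5 genes of the p53 response (Cdkn1a, Ccng1, Fas, Pmaip1 and Trp53inp1) rose, and their summed level ran from 5.21 to 5.67 in hydroxyurea samples and from 1.98 to 2.24 in saline samples, in log2. All 9 markers of the embryo proper were well above background on all arrays. Their summed levels were 9.24 to 10.2 in hydroxyurea and 9.31 to 9.83 in saline. Signals were summed before the log2, and Hbb-bh1 alone lay at 9.12 to 10.07, so this sum says little of the other markers. Of the 9 markers 0 were called, and the difference was positive in 2. An unadjusted p under 0.05 (limma) was reached by 2, against 24.8% of all features. These were Sox2 at -0.51 and Pax6 at -0.70, each without overlap of the groups. The 6 markers of yolk sac endoderm summed to 3.98 to 6.39 in hydroxyurea and 4.21 to 7.92 in saline, with 0 called and 0 at an unadjusted p under 0.05 (limma). Of 6 markers of trophoblast and decidua on the array, Tpbpa and Ctsq were never well above background, and the list summed to 4.62 to 6.24 in hydroxyurea and 1.77 to 5.07 in saline, with 0 of 4 tested genes called and 0 at an unadjusted p under 0.05 (limma).

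Within the trophoblast list, Prl3d1 was high on hydroxyurea 2 and hydroxyurea 3, at 2.40 and 1.43, and at -3.29 and -3.91 on hydroxyurea 1 and 4. Prl8a2 was at 2.40 and 6.03 on hydroxyurea 2 and 3, against -4.45 and -6.84 on hydroxyurea 1 and 4. For Prl3b1 these values were 0.07 and 0.33, against -0.35 and -0.38. Gcm1 went the other way, at 3.92 and 2.60 against 4.56 and 5.14. With hydroxyurea 2 and 3 left out, Atm differed by 0.68 ± 0.17 (SE) with an adjusted p of 0.0405, and Wee1 by -0.68 ± 0.15 with an adjusted p of 0.0293 (limma). Each of the 6 yolk sac markers was highest on saline 2, with Ttr at 4.78 and Rbp4 at 6.55 there. Without saline 2 neither gene was called, with adjusted p of 0.0807 for Atm and 0.0612 for Wee1 (limma). The part of yolk sac tissue in the members' values was not tested.

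**Figure D5:**
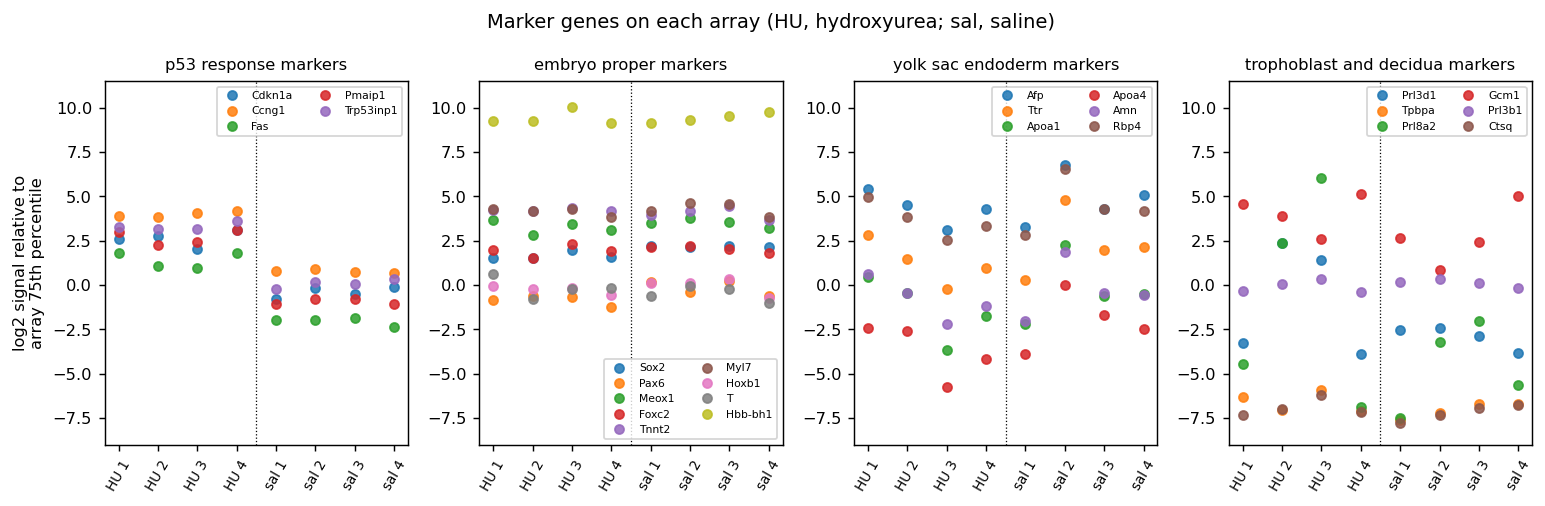
Marker genes on each array, in log2 relative to the array's 75th percentile, for the p53 response, the embryo proper, yolk sac endoderm, and trophoblast and decidua, with hydroxyurea arrays left of saline arrays. The summed level of the p53 response lies between 5.21 and 5.67 on hydroxyurea arrays and between 1.98 and 2.24 on saline arrays.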

How the data were processed

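RNA of 8 samples was measured on 1-colour Agilent arrays, 4 on each of 2 slides, with both treatments on both. The deposited scanner files hold intensity values, background-subtracted and not scaled between arrays, from Agilent Feature Extraction 11.5.1.1, per the file headers. The authors' deposited table holds log2 values, whose test and threshold the sources used here do not state. Outlier spots were left out. The mean log2 signal over a probe's spots, minus the 75th percentile of that array without its control probes, was tested for 30759 probes well above background on at least 4 arrays. limma 3.58.1 (R 4.3.3, lmFit and eBayes, no covariate) gave two-sided p-values, adjusted by Benjamini and Hochberg over all tested probes. Lists used the brightest probe of each gene, with p-values from a separate fit adjusted over 23173 genes and unnamed features. For list genes, second probes, alternatives and the Cdk1 value among the other observations came from fits over all 30759 tested probes. The number of arrays limits the precision. RefSeq tables (GRCm38.p6) gave symbols and promoters. The script was tested on simulated data, in which 200 of 30677 probes were changed, in equal parts by 1 and by 2 log2 units. It called 33 of those changed by 1, 74 of those changed by 2 and 4 unchanged probes. All member differences were smaller than 1, so a gene that was not called may still differ. Alternatives covered background correction, scaling, filters, probe summaries, blocks for slide, row and position, each slide and each sample left out. The planned normexp correction on mean signals was replaced by one on median signals, because those were the columns present.

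Named genes were all members, up to 3 called genes of lowest p in each pathway list or the 2 of lowest p where none was called, and the 3 probes nearest to each called member. Members and lists were chosen with earlier results of these data known.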

Additional observations from a re-analysis of the deposited data

Results flagged for a closer look

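Single samples stood apart from the rest of their group in 4 of 34 groups of 4 values examined, by the gap of the extreme sample over the range of its group, set against Dixon's critical value. Chance flags about 1 in 20 such groups. Chek2 in hydroxyurea 2 was at -0.24 in log2, with a ratio of 0.936, and the other 3 hydroxyurea samples lay between -1.07 and -1.02. Cdc25a in saline 3 was at 3.92, with a ratio of 0.873. The others were ratios within an array, namely Atr over Atrip at 0.99 in hydroxyurea 4 (0.891) and Atm over Chek2 at 1.2 in hydroxyurea 2 (0.922). The Atm over Chek2 value contains the Chek2 value of the same array.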

How the results depend on the processing

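Under the 21 alternatives run on single probes, the single-spot Atm probe lay between 0.60 and 0.78 and Wee1 between -0.76 and -0.58, and each was called in 10. The 2 called member probes became 1 with the mean of a gene's probes. They became 0 with median centring, with no filter, with the position block and in slide 1 or slide 2 alone. In these fits, in this order, 3, 3, 3, 1 and 2 of 11 member probes had an unadjusted p under 0.05 (limma). Over all probes, 3832 were higher and 2894 lower at that p with median centring, and 3552 and 4287 with no filter. These counts were 3497 and 4338 with the position block, 1117 and 1493 in slide 1, and 1828 and 2690 in slide 2. The fit with no filter held 55681 probes and the others 30759. Without single samples the called member probes numbered 0 to 2. Median centring raised the median of all probes by 0.12. This shift is the same for every probe and alone turns the sign of Chek2 under that scaling.

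The 776 probes called higher were 278 with no filter, 25 in slide 1, 0 in slide 2 (1828 at an unadjusted p under 0.05, limma), 1808 without hydroxyurea 2 and 3, and 258 to 2214 without single samples. The 1321 called lower were 633 with no filter, 786 with 1 probe per gene, 831 with the mean of probes, 27 in slide 1, 3 in slide 2, 2913 without hydroxyurea 2 and 3, and 605 to 2647 without single samples. The alternatives without both arrays, with the position block and with normexp on median signals were chosen after seeing the data.

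Chek2 changed sign, to 0.041 with normexp, 0.066 with median centring and 0.091 in slide 1, and ran from -0.25 to 0.098 without single samples, with positive values of 0.0082, 0.026, 0.0090 and 0.098 without hydroxyurea 1, 3 and 4 and saline 1. Chek1 over Chek2 ran from -0.43 to 0.083, and was 0.083 without hydroxyurea 2 and 0.033 without saline 2. The median of the recovery list, 0.06, was 0.18 with median centring and 0.016 to 0.19 without single samples. The 3 called pathway genes were 8 with quantile normalization, 1 with median centring, 1 with the slide as a block and 1 to 10 without single samples. Calls over all 30759 tested probes moved as well, from 776 higher and 1321 lower to 1086 and 1404 under quantile normalization. Median centring gave 603 higher and 1092 lower, and the slide block 549 and 1074. Leaving out 1 sample gave 258 to 2214 higher and 605 to 2647 lower. The called pathway genes numbered 0 in slide 1 and in slide 2, where 4 and 5 of 50 had an unadjusted p under 0.05 (limma). Of the 30759 tested probes, 1117 were higher and 1493 lower at that p in slide 1, and 1828 and 2690 in slide 2. Where no cause is given, it was not tested. No paired analysis was possible because the labels give no shared replicate numbers, dams or litters, and no label ties the slide positions to animals.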

Other observations

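Of the 50 tested pathway genes 12 had several probes, and in 6 of these (Btrc, Cdc7, Cdk1, Rad50, Trp53bp1 and Usp7) the probes differed in sign. Cdk1, which encodes the kinase that Wee1 inhibits, differed between hydroxyurea and saline by -0.79 on its brightest probe, with an adjusted p of 0.0632 (limma), by -0.78 on a second and by 0.11 on its dimmest. Ccnb1, which encodes the cyclin B partner of Cdk1, differed by -0.68, -0.66 and -0.52 on its 3 probes. None of these 6 probes was called. Cdk1 and Ccnb1 were singled out after their values were seen.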
